A study of Homo sapiens with 6 samples.

Results

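The autophagy machinery was examined in THP1 cells, a human acute myeloid leukemia (AML) line of monocytic type, after exposure to Withaferin A (WFA), a steroidal lactone from the plant Withania somnifera. The machinery was taken as 37 genes chosen by name, with earlier results of these data known. All were found among the 26485 gene rows of the deposited count table. RNA was sequenced from 3 cultures exposed for 6 h to the vehicle DMSO and 3 exposed for 6 h to WFA, and the study's methods describe 3 independent experiments. The WFA dose is given as 1 mM in the labels and 1 μM in the study's methods. All samples came from 1 cell line, so the comparison covers no other AML cells, and only RNA was measured, so it says nothing of protein levels, LC3 lipidation or autophagic flux.

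The 6 libraries held between 11006035 and 13872810 counts, and between 15981 and 16330 genes had a count in each. The 10 most abundant genes took 5.28 to 6.50% of the counts in DMSO and 8.79 to 9.11% in WFA. All 10 monocytic marker genes checked had at least 10 counts in every library, with summed levels of 2546 to 3086 CPM (read counts scaled to a common library size) in DMSO and 2331 to 3116 CPM in WFA. The sums rested mainly on LYZ, and 4 of the 10 markers were lower and 1 higher in WFA. CD14, CD33, CSF1R and SPI1 had log2 fold changes of -1.22, -0.85, -0.40 and -0.34 and CD68 one of 0.37 (edgeR BH-adjusted p = 0.0016, 7.0e-06, 0.0024, 0.046 and 0.0053). Of 15 markers of other cell types, 9 had at most 3 counts in every library, and their summed level was 2.39 to 3.0 CPM in DMSO and 11.4 to 15.1 CPM in WFA. COL1A1, a collagen gene, had 3 to 10 counts per library in DMSO and 106 to 135 in WFA, while COL1A2 was listed at 0 in every library. The part of these marker differences in the results below was not tested. In bulk RNA, fewer cells expressing a gene and less RNA per cell cannot be told apart.

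Autophagy encloses cytoplasm in a double membrane, the autophagosome, which fuses with lysosomes so that its contents are degraded. The ULK1 kinase complex starts the process, a class III phosphatidylinositol 3-kinase complex around BECN1 marks the site, and ATG9A vesicles with ATG2 lipid transfer proteins let the membrane grow. Enzymes related to those of ubiquitination then attach proteins of the ATG8 family to the membrane, where they help it to expand and bind the receptors that carry cargo. TFEB and TFE3 are related transcription factors that switch on lysosomal and autophagy genes through a motif known as CLEAR.

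Transcript levels of the machinery were mostly higher after WFA. Of the 37 genes, 21 were higher and 3 were lower at an adjusted p under 0.05, and 13 did not pass the test (edgeR quasi-likelihood test with Benjamini-Hochberg adjustment over 12854 genes tested). WFA changed a large part of the transcriptome in the same test, with 25.8% of all tested genes higher and 24.7% lower, 50.5% together. The 21 higher genes were 56.8% of the machinery and the 3 lower genes 8.11%, so the higher share lay above the background and the lower share under it. The median log2 fold change (WFA over DMSO) was 0.31 over the 37 genes and 0.02 over all tested genes. Taken per replicate pair, the median over the 37 genes was 0.40, 0.28 and 0.32. Without the ATG8 family, 16 of 32 genes were higher and 3 lower, with a median of 0.20. With the replicate number as a block the number higher was also 21 and the number lower was 7, beside 30.2% of all tested genes higher and 28.8% lower in that fit. With libraries scaled by their total counts in place of TMM, a trimmed mean of gene ratios, 17 genes were higher and 7 lower, beside 21.5% and 30.1% of all tested genes.

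More than a 2-fold increase was seen for 6 of the 37 genes, ATG9A, WIPI1, MAP1LC3A, MAP1LC3B, GABARAPL1 and TFE3, beside 8.11% of all tested genes. No member was lower by more than 2-fold, beside 5.2% of all tested genes. In 23 of the 37 genes every WFA library lay above every DMSO library, and in 7 every WFA library lay below, beside 29.6% and 28.5% of all tested genes. The groups overlapped for the remaining 7 genes. Levels and fold changes differed between the steps of the pathway, as the plot of fold changes by step shows. The counts per step below are to be read against 25.8% of all tested genes higher and 24.7% lower. By these calls nucleation, with 20% higher and 20% lower, and conjugation, with 16.7% and 33.3%, lay near those shares. By other measures more of their genes were lower. In nucleation 4 of 5 genes had every WFA library below every DMSO library and 1 above, beside 28.5% and 29.6% of all tested genes. With the replicate block 3 of 5 nucleation and 3 of 6 conjugation genes were lower and 1 in each higher, beside 28.8% and 30.2%. No step was tested as a set.

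**Figure D1:**
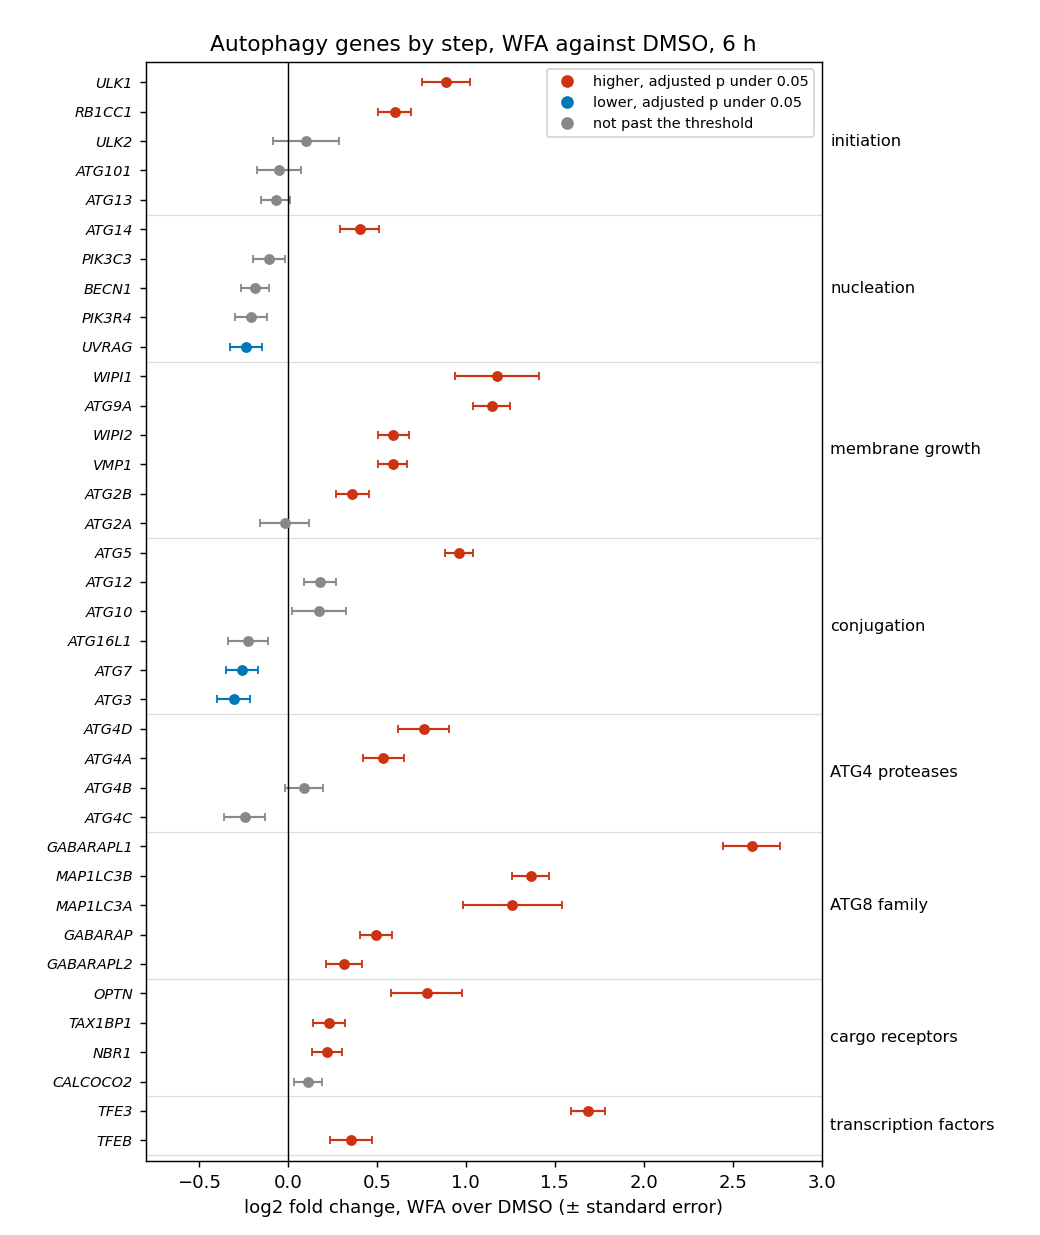
Log2 fold change (WFA over DMSO, x axis) with its standard error for each of the 37 autophagy genes, grouped by step of the pathway, in red where higher, blue where lower and grey where the test was not passed. The ATG8 family, membrane growth and transcription factor groups lie mostly to the right of 0, with GABARAPL1 at 2.61 as the farthest point, while nucleation and conjugation genes lie on both sides of 0.

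Promoters of the members were searched for motifs, using RefSeq's 300 base windows on GRCh38.p14, from 250 bases before to 50 after the transcription start, which covered 33 of the 37 members. The CLEAR core TCACGTGA, searched on both strands, was found in 1 member promoter, ATG3, and in 1.04% of all 27305 promoters. The shorter E-box CACGTG, which lies inside the CLEAR core, was found in 2 member promoters, ATG14 and ATG3, and in 7.43% of all. The antioxidant response element core TGACNNNGC was found in 3, ATG101, MAP1LC3B and CALCOCO2, and in 13.6% of all promoters. Paired heat shock units occurred in 2 members as TTCNNGAA (PIK3R4 and ATG3, 7.84% of all) and in 2 as GAANNTTC (GABARAPL2 and TAX1BP1, 6.87% of all). No member promoter held the heat shock element of 3 units, found in 0.487% of all, or the C/EBP-ATF response element TGATGNAA, found in 3.67% of all. The cyclic AMP response element TGACGTCA was added to the search after the GABARAPL1 promoter had been read, and was found in that member alone and in 1.98% of all promoters. Among the 9602 promoters of tested genes the shares were 1.96% for the CLEAR core, 10.2% for the E-box, 15.3% for the antioxidant core, 6.27% and 4.46% for the paired heat shock units, 0.333% for 3 units, 1.67% for the C/EBP-ATF element and 3.19% for the cyclic AMP element. A match describes letters in the window and is not evidence of binding.

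The stretches around these matches are printed for ATG3 and for the genes described in full below whose promoter held a match, with the matched motif in capitals. The ATG14 stretch shows the E-box, that of ATG3 a paired heat shock unit, the E-box and the CLEAR core, that of MAP1LC3B the antioxidant core, and that of GABARAPL1 the cyclic AMP response element. They lie at chr14:55411816-55411881 (minus strand), chr3:112561921-112562067 (minus strand), chr16:87392260-87392328 (plus strand) and chr12:10212817-10212884 (plus strand), and each is read 5′ to 3′ along the gene. ATG3 was included after its values had been seen, because it alone among the 33 promoters held the CLEAR core.
ATG14: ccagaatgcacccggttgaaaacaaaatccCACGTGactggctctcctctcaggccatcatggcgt
ATG3: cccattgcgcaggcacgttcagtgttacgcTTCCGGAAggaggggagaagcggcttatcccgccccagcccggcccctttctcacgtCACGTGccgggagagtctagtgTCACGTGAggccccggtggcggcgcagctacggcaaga
MAP1LC3B: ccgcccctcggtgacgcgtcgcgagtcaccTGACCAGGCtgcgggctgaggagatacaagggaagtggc
GABARAPL1: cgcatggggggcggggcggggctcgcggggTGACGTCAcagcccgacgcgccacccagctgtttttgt

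Of the 5 initiation genes, 2 rose and 3 did not pass the test, with a median log2 fold change of 0.10. ULK1 (chr12:131894622-131923150), the kinase that starts autophagosome formation, was measured at 15.1, 14.1 and 11.5 CPM in the DMSO libraries and 22.6, 25.7 and 27.4 CPM in the WFA libraries. All 3 WFA libraries were above all 3 DMSO libraries, and the log2 fold change was 0.89 ± 0.13 (SE), or 1.85-fold (edgeR BH-adjusted p = 6.5e-05). Its relative ULK2 showed no such separation, at 5.49 to 7.83 CPM in DMSO and 6.44 to 7.76 CPM in WFA, with a log2 fold change of 0.10 (edgeR BH-adjusted p = 0.67). RB1CC1, also known as FIP200, is the scaffold of the ULK1 complex and rose from a mean of 146 ± 11 (SD, n = 3) to 221 ± 16.3 CPM, with a log2 fold change of 0.60 (edgeR BH-adjusted p = 6.7e-05). The other partners of the kinase, ATG13 and ATG101, had log2 fold changes of -0.07 and -0.05, and neither passed the test (edgeR BH-adjusted p = 0.51 and 0.77).

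Nucleation was the step with the lowest median, -0.19, and 1 of its 5 genes rose and 1 fell. ATG14 (chr14:55366391-55411830) directs the phosphatidylinositol 3-kinase complex to autophagosome formation and holds the E-box printed above. It was measured at 28.8, 26.8 and 33.4 CPM in DMSO and 38.0, 37.9 and 42.0 CPM in WFA. The groups did not overlap, and ATG14 rose by a log2 fold change of 0.40 ± 0.11 (SE; edgeR BH-adjusted p = 0.0065).

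UVRAG, which takes the place of ATG14 in a second form of the same complex, went the other way. Its level was 66.3, 61.6 and 63.2 CPM in DMSO and 58.8, 50.5 and 53.0 CPM in WFA, a log2 fold change of -0.24 ± 0.09 (SE; edgeR BH-adjusted p = 0.045). The call for UVRAG was lost in 5 of the 6 fits that left out 1 library, the exception being the fit without WFA replicate 1. The 3 shared subunits, the scaffold BECN1, the lipid kinase PIK3C3 and its regulatory subunit PIK3R4, had log2 fold changes of -0.19, -0.11 and -0.21 and did not pass the test (edgeR BH-adjusted p = 0.065, 0.34 and 0.060). For these 3 genes every WFA library lay below every DMSO library, as for 28.5% of all tested genes. With the replicate block BECN1 and PIK3R4 passed (edgeR BH-adjusted p = 0.042 and 0.040). Neither passed in the DESeq2 Wald test with the same block (DESeq2 BH-adjusted p = 0.071 and 0.085).

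Among membrane growth genes the higher ones prevailed, with 5 of 6 higher, none lower and a median log2 fold change of 0.59. ATG9A (chr2:219219380-219229636), the scramblase whose vesicles seed the membrane, was measured at 37.2, 30.9 and 30.5 CPM in DMSO and 70.2, 69.2 and 79.2 CPM in WFA. The lowest WFA library was well above the highest DMSO library, and ATG9A rose by a log2 fold change of 1.15 ± 0.11 (SE), or 2.21-fold (edgeR BH-adjusted p = 5.0e-07). WIPI1 (chr17:68421281-68457496), which reads the phosphatidylinositol 3-phosphate mark, was rare, at 2.25, 1.90 and 2.08 CPM in DMSO and 4.90, 3.70 and 5.58 CPM in WFA. Those levels rested on 24 to 32 counts per DMSO library and 46 to 60 per WFA library, and the groups did not overlap. WIPI1 rose by a log2 fold change of 1.18 ± 0.24 (SE; edgeR BH-adjusted p = 0.00071).

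Its abundant relative WIPI2 and the membrane protein VMP1 each rose with a log2 fold change of 0.59 (edgeR BH-adjusted p = 5.1e-05 and 2.7e-05). Of the lipid transfer proteins, ATG2B rose with a log2 fold change of 0.36 (edgeR BH-adjusted p = 0.0041), while ATG2A had a log2 fold change of -0.02 and did not pass (edgeR BH-adjusted p = 0.92).

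Within the conjugation machinery 1 of 6 genes rose, 2 fell and 3 did not pass the test, with a median of -0.03. ATG5 (chr6:106184476-106325760), which is joined to ATG12 to form part of the ligase for ATG8 proteins, was measured at 107, 103 and 101 CPM in DMSO and 195, 205 and 207 CPM in WFA. The replicates were close in both groups, and ATG5 rose 1.95-fold, a log2 fold change of 0.96 ± 0.08 (SE; edgeR BH-adjusted p = 2.1e-07). Of its partners in the ligase, ATG12 had a log2 fold change of 0.18 and ATG16L1 of -0.23, and neither passed the test (edgeR BH-adjusted p = 0.11 and 0.11). ATG16L1 passed as lower with the replicate block in edgeR (BH-adjusted p = 0.048) and did not pass with it in DESeq2 (BH-adjusted p = 0.13).

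The enzymes that feed this ligase were lower or did not pass. ATG3, the E2-like enzyme for ATG8 proteins, was measured at 110.4, 101 and 103 CPM in DMSO and 94.2, 76.4 and 84.4 CPM in WFA. All WFA libraries lay below all DMSO libraries, and ATG3 fell with a log2 fold change of -0.31 ± 0.09 (SE; edgeR BH-adjusted p = 0.012). ATG7, the E1-like enzyme for both conjugation reactions, was measured at 55.5, 55.4 and 55.8 CPM in DMSO and 44.7, 49.0 and 45.6 CPM in WFA. Its groups did not overlap either, and it fell with a log2 fold change of -0.26 ± 0.09 (SE; edgeR BH-adjusted p = 0.024). Both calls were fragile, since ATG3 lost its call without DMSO replicate 1 or without WFA replicate 2 (edgeR BH-adjusted p = 0.058 and 0.064), and ATG7 lost it without any 1 library other than WFA replicate 2. ATG10, the E2-like enzyme for ATG12, had a log2 fold change of 0.17 and did not pass the test (edgeR BH-adjusted p = 0.37), and its value was 0.011 without DMSO replicate 2.

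The 4 ATG4 proteases trim new ATG8 proteins and release them from membranes, and 2 of them rose while 2 did not pass the test, with a median of 0.31. ATG4D (chr19:10543904-10553418) was measured at 10.8, 11.4 and 8.58 CPM in DMSO and 17.1, 16.5 and 18.9 CPM in WFA. The groups did not overlap, and ATG4D rose with a log2 fold change of 0.76 ± 0.14 (SE; edgeR BH-adjusted p = 0.00042). ATG4A rose with a log2 fold change of 0.54 (edgeR BH-adjusted p = 0.0013). ATG4B, the main ATG8 protease in most cells, had a log2 fold change of 0.09, and ATG4C of -0.24, and neither passed the test (edgeR BH-adjusted p = 0.49 and 0.091). With the replicate block ATG4C passed as lower in edgeR (BH-adjusted p = 0.039) and did not pass in DESeq2 (BH-adjusted p = 0.12).

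All 5 measured genes of the ATG8 family rose, with a median log2 fold change of 1.26. GABARAPL1 (chr12:10212877-10223128) showed the largest fold change of the 37 genes. It was measured at 3.02, 3.32 and 3.75 CPM in DMSO and 22.4, 18.2 and 20.8 CPM in WFA, from 42 to 45 counts and 224 to 274 counts per library. Every WFA library was far above the DMSO libraries, and GABARAPL1 rose by a log2 fold change of 2.61 ± 0.16 (SE), or 6.09-fold (edgeR BH-adjusted p = 8.3e-09). Its promoter stretch with the cyclic AMP response element is printed above.

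MAP1LC3B (chr16:87392336-87404774) encodes the LC3B protein commonly used to follow autophagosomes. Its level was 53.9, 63.8 and 49.9 CPM in DMSO and 153, 130.1 and 148 CPM in WFA. The groups were well apart, and MAP1LC3B rose 2.58-fold, a log2 fold change of 1.37 ± 0.10 (SE; edgeR BH-adjusted p = 7.1e-08). MAP1LC3A (chr20:34546844-34560345), its relative, was rare and varied among the DMSO libraries, with 1.69, 3.08 and 1.25 CPM from 15 to 39 counts, against 4.90, 4.91 and 4.65 CPM in WFA from 50 to 61 counts. The groups did not overlap, and MAP1LC3A rose by a log2 fold change of 1.26 ± 0.28 (SE; edgeR BH-adjusted p = 0.0015). The plot of the genes named in full shows this spread by library.

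GABARAP and GABARAPL2, the most abundant members of the family per kilobase in DMSO, rose with smaller fold changes. GABARAP went from 60.4 ± 5.16 to 85.1 ± 0.144 CPM (SD, n = 3), a log2 fold change of 0.49 (edgeR BH-adjusted p = 0.00030). GABARAPL2 was measured at 58.0, 72.1 and 58.3 CPM in DMSO and 83.0, 77.1 and 74.2 CPM in WFA, so that its groups came close without overlapping. Its log2 fold change was 0.31 (edgeR BH-adjusted p = 0.017), and the call was lost without DMSO replicate 1, DMSO replicate 3 or WFA replicate 1 (edgeR BH-adjusted p = 0.090, 0.067 and 0.063).

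**Figure D2:**
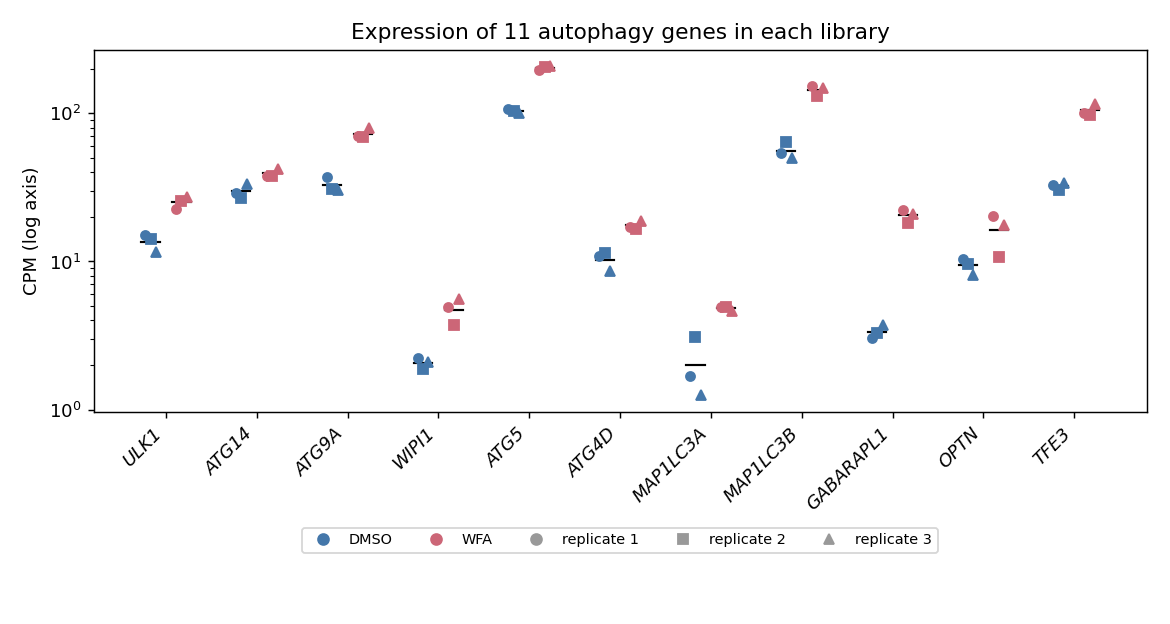
CPM on a log axis in each of the 6 libraries for the 11 genes named in full, with DMSO in blue, WFA in red, marker shapes for replicate numbers and a black bar at the group mean. For every gene the WFA points lie above the DMSO points, by the widest distance for GABARAPL1 and by the narrowest for OPTN, where WFA replicate 2 is at 10.7 CPM and DMSO replicate 1 at 10.4 CPM.

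Near-identical copies of these genes could split reads, so they were also counted together. The sum of MAP1LC3B and MAP1LC3B2 had a log2 fold change of 1.37. MAP1LC3B2 added few counts, from 766 to 767 in DMSO replicate 1 and from 1877 to 1887 in WFA replicate 1. The sum could therefore hardly differ from MAP1LC3B alone and says little about split or lost reads. GABARAPL3 was listed at 0 in every library, so that adding it to GABARAPL1 changed no count and tested nothing about split reads. Summed over the 5 genes, the ATG8 family was at 177, 208 and 168 CPM in DMSO and 349, 316 and 333 CPM in WFA. The family as a whole was therefore higher in each WFA library, with a log2 fold change of 0.85 ± 0.10 (SE; edgeR BH-adjusted p = 3.7e-06).

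The makeup of the family was then compared between the groups. Per kilobase of exon, GABARAPL2 made up 49.3 ± 1.31% (SD, n = 3) of ATG8 family transcripts in DMSO and 37.7 ± 1.37% in WFA. GABARAP went from 28.6 ± 1.38% to 24.8 ± 1.12%. Both shares were lower in every WFA library although both genes rose in level.

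MAP1LC3B went from 19.8 ± 0.394% to 31.4 ± 1.64% of the family. By these values it stood above GABARAP in every WFA library and below it in every DMSO library. The places of GABARAPL2, GABARAP and MAP1LC3B depend on the exon lengths used, 1363, 2266 and 3016 bases in protein-coding transcripts. Over all annotated exons these lengths are 3034, 2266 and 5313 bases, and shares with them were not computed. The order of these genes and the sizes of the shares are therefore given only for the lengths used. Other transcript lengths were not tried, and exons of other genes cover 55.7% of the exon bases of GABARAP. GABARAPL1 went from 1.16 ± 0.209% to 4.28 ± 0.275%, and MAP1LC3A from 1.19 ± 0.423% to 1.80 ± 0.0920%. None of the 5 shares overlapped between the groups. The shares are parts of one total, so a gain in one requires a loss in others, and they are not 5 separate observations. No share over other gene families was computed, and 29.6% and 28.5% of all tested genes lay above or below without overlap. The exact permutation test over 3 and 3 libraries cannot go below p = 0.1, and it gave p = 0.1 (two-sided) for each share, also after BH adjustment over the 5. The plot of the makeup of the family gives these shares by library.

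**Figure D3:**
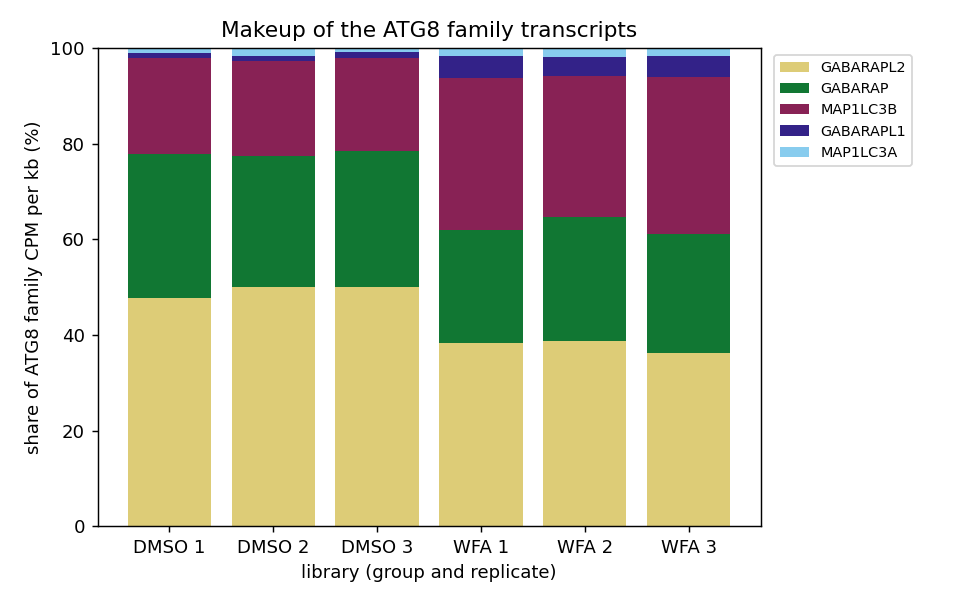
Share of ATG8 family transcripts, in percent of the summed CPM per kilobase of exon, held by each of the 5 genes in each library. GABARAPL2 holds 47.8 to 50.04% in DMSO and 36.2 to 38.8% in WFA, and MAP1LC3B 19.3 to 20.04% in DMSO and 29.6 to 32.7% in WFA.

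Among the 4 cargo receptors 3 rose, by small amounts except for 1, with a median log2 fold change of 0.23. OPTN (chr10:13100082-13138308), which links ubiquitinated bacteria and mitochondria to ATG8 proteins, was measured at 10.4, 9.63 and 8.17 CPM in DMSO and 20.4, 10.7 and 17.5 CPM in WFA. WFA replicate 2 was hardly above the highest DMSO library, while the other WFA libraries were well above. OPTN rose with a log2 fold change of 0.78 ± 0.20 (SE; edgeR BH-adjusted p = 0.0047). NBR1 and TAX1BP1, which gather ubiquitinated proteins, had log2 fold changes of 0.22 and 0.23 (edgeR BH-adjusted p = 0.042 and 0.044). With DESeq2 in place of edgeR these calls for NBR1 and TAX1BP1 were lost (DESeq2 adjusted p = 0.085 and 0.064), and they were also lost in 5 of the 6 fits that left out 1 library. The TAX1BP1 value without WFA replicate 1 was 0.16 (edgeR BH-adjusted p = 0.18). CALCOCO2, also known as NDP52, had a log2 fold change of 0.11 and did not pass the test (edgeR BH-adjusted p = 0.26).

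Both transcription factors rose, with a median log2 fold change of 1.02. TFE3 (chrX:49028726-49043357) was measured at 32.9, 30.6 and 33.7 CPM in DMSO and 100.1, 97.4 and 116 CPM in WFA. The lowest WFA library was far above the highest DMSO library, and TFE3 rose 3.22-fold, a log2 fold change of 1.69 ± 0.10 (SE; edgeR BH-adjusted p = 4.0e-09). TFEB was measured at 25.1, 24.6 and 22.7 CPM in DMSO and 26.8, 31.5 and 34.4 CPM in WFA, and rose with a log2 fold change of 0.35 ± 0.12 (SE; edgeR BH-adjusted p = 0.021). The TFEB call was lost without DMSO replicate 2, DMSO replicate 3 or WFA replicate 3 (edgeR BH-adjusted p = 0.052, 0.073 and 0.092).

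Paralogs within a step were compared by their log2 CPM ratio in each library. Library scaling cancels in this ratio apart from the added prior count of 2, which weighs most in genes with few counts. Of 9 pairs, 8 had ratios that did not overlap between the groups, and each of these gave the smallest p that the exact permutation test allows, 0.1 (two-sided, BH-adjusted over the 9 pairs 0.1125). No share over other gene pairs was computed to set beside this count. Among single genes, 29.6% of all tested genes had WFA above DMSO without overlap and 28.5% had it below. The differences were widest for GABARAPL1, with its mean log2 ratio to GABARAPL2 going from -4.16 ± 0.24 to -1.93 ± 0.13 (SD, n = 3) and that to GABARAP from -4.10 ± 0.25 to -2.05 ± 0.15.

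TFEB over TFE3 went from -0.42 ± 0.13 to -1.75 ± 0.14, a difference of -1.33. ATG4C over ATG4D went from 1.59 ± 0.23 to 0.58 ± 0.25, a difference of -1.02. In both pairs every WFA library had a lower ratio than every DMSO library.

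Smaller differences were found for ULK1 over ULK2 (0.79), WIPI1 over WIPI2 (0.52), ATG4A over ATG4B (0.44) and ATG2A over ATG2B (-0.37). The exception was MAP1LC3B over MAP1LC3A, whose ratios overlapped, at 4.77 ± 0.43 in DMSO and 4.85 ± 0.15 in WFA, a difference of 0.08 (exact permutation p = 0.8). The plot of the ratios shows the libraries behind each of the 9 pairs.

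**Figure D4:**
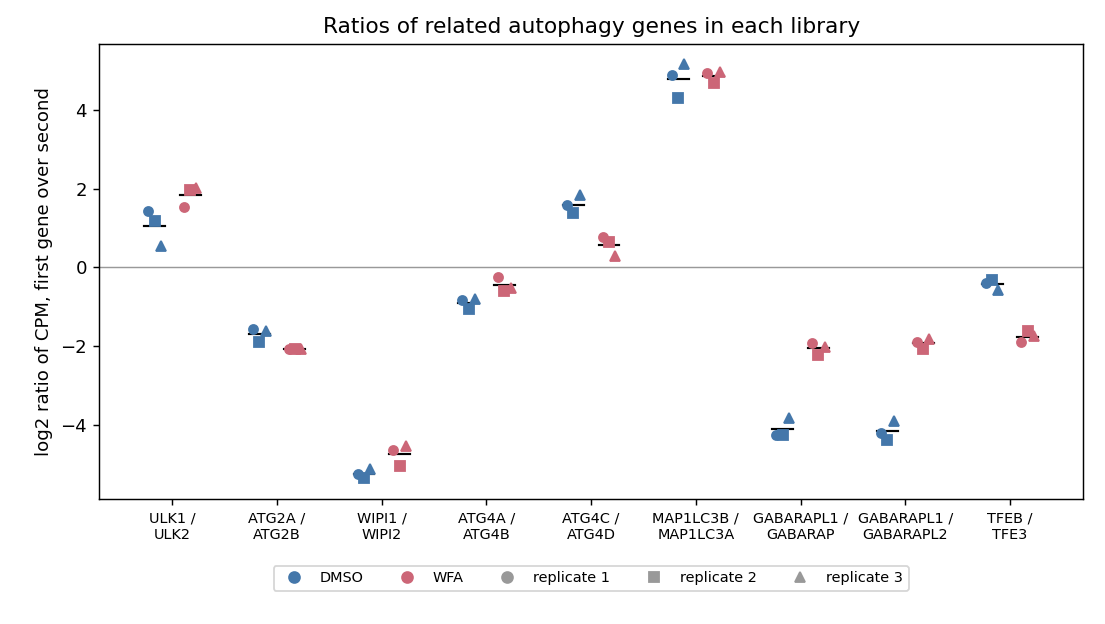
Log2 ratio of CPM between paralogs (y axis) in each of the 6 libraries for 9 pairs, with DMSO in blue and WFA in red. The groups are apart for 8 pairs, most widely for the 2 pairs with GABARAPL1, and overlap for MAP1LC3B over MAP1LC3A.

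The order of transcript levels within the machinery differed between the groups. Per kilobase of exon, GABARAPL2 was the most abundant of the 37 genes in both groups, at 46.1 CPM per kilobase in DMSO and 57.3 in WFA. In DMSO it was followed by BECN1 at 39.2 and ATG3 at 33.4 CPM per kilobase. In WFA it was followed by MAP1LC3B at 47.7 and ATG5 at 42.5 CPM per kilobase, which had been 11 and 9 in the DMSO order. TFE3 moved from place 21 to place 9 and GABARAPL1 from 35 to 27, while WIPI1 and ULK2 were among the 3 lowest in both groups. These places rest on the combined exon length of a gene's protein-coding transcripts, and other transcript lengths were not tried. Over all annotated exons, GABARAPL2 has 3034 bases in place of 1363. BECN1 has 6414 in place of 2965 and MAP1LC3B 5313 in place of 3016, so the places are given only for the lengths used.

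Other genes of the pathway, from lists set by their function but with earlier results of these data known, were read in the same fit. Of 82 such genes 78 entered the test, of which 43 passed as higher and 8 as lower, with a median log2 fold change of 0.37. These are 55.1% and 10.3%, beside 25.8% and 24.7% of all tested genes, and the smaller lists below are to be read against the same shares. Among other core and accessory factors 8 of 13 were higher and none lower. The smallest p among them was that of TMEM41B, a scramblase that works with VMP1, with a log2 fold change of 0.74 (edgeR BH-adjusted p = 1.3e-05).

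Of 16 other cargo receptors 9 were higher and 1 lower. SQSTM1, the receptor p62 that carries ubiquitinated proteins, was measured at 128, 117 and 99.9 CPM in DMSO and 597, 476 and 643 CPM in WFA, above DMSO in every library. Its log2 fold change was 2.32 ± 0.12 (SE), or 4.98-fold, and exceeded that of each of the 4 receptors described above (edgeR BH-adjusted p = 2.0e-09). The mitophagy receptor BNIP3L and the endoplasmic reticulum receptor CCPG1 rose with log2 fold changes of 1.2 and 1.24 (edgeR BH-adjusted p = 1.3e-07 and 3.1e-07).

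Of 13 genes for fusion with the lysosome 7 were higher and 2 lower, and YKT6, a SNARE protein of autophagosomes, rose with a log2 fold change of 0.63 (edgeR BH-adjusted p = 4.0e-05). Of 30 genes of nutrient and energy signalling 16 were higher and 4 lower. MTOR, the kinase that holds ULK1 and TFEB inactive in fed cells, had a log2 fold change of -0.14 and did not pass the test (edgeR BH-adjusted p = 0.19). Several genes known to restrain mTOR complex 1 rose, SESN2 with a log2 fold change of 1.92, DDIT4 with 1.48 and CASTOR1 with 1.15 (edgeR BH-adjusted p = 1.2e-06, 3.9e-05 and 0.0081). CASTOR1 rested on 8 to 22 counts per library. DEPTOR, a subunit of the complex that also inhibits it, fell with a log2 fold change of -1.17 (edgeR BH-adjusted p = 2.2e-05).

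Among 6 other transcriptional regulators 3 were higher and 1 lower. MCOLN1, the lysosomal calcium channel upstream of TFEB, and the transcription factor FOXO1 rose with log2 fold changes of 1.42 and 1.18 (edgeR BH-adjusted p = 3.6e-06 and 6.3e-05). The SESN2 level was uneven among WFA libraries, at 28.3, 37.0 and 54.0 CPM against 9.79 to 11.1 CPM in DMSO, without overlap.

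Exons of other genes cover more than 10% of the exon bases of 7 members in GENCODE 29, with exons of all transcripts counted. Shares were 55.7% for GABARAP, 38.8% for ATG9A, 28.1% for WIPI1, 19.2% for ATG101, 18.1% for ATG7, 17.1% for BECN1 and 15.0% for ATG4D. All of the ATG9A overlap, and 30.5% of the exon bases of GABARAP, lie on the same strand as the other gene, where strand use would not separate reads. The remaining overlaps of these genes are on the opposite strand, and strand use in counting is not given in the sources used here. Reads within the shared bases therefore cannot be told apart here, while reads in the other exon bases can. The values of these 7 genes are the less certain ones.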

How the data were processed

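Total RNA from 3 DMSO and 3 WFA cultures of THP1 cells was made into libraries with a TruSeq RNA v2 kit and sequenced. The submitters' processing notes name bcl2fastq 2.19, Trimmomatic, Bowtie2, Picard, featureCounts, DESeq2 and hg38. Their settings, the annotation and strand use are not given in the sources used here. The authors deposited raw read counts per gene symbol. Older symbols were matched through RefSeq synonyms.

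Counts were tested with edgeR 4.0.16 (R 4.3.3) by its quasi-likelihood test after TMM scaling and filterByExpr (minimum count 10), with BH adjustment over 12854 genes and a threshold of 0.05. A standard error is the log2 fold change over the root of F. CPM used TMM-scaled totals and levels per kilobase used the exons of protein-coding transcripts in GENCODE 29. Log2 CPM ratios used a prior count of 2. DESeq2 1.42.0 was an alternative. Leaving out each library, other scalings and no count filter were also tried. Scripts were tested on simulated data.

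Replicate numbers come from the labels and match the 3 independent experiments. Deviations from group means correlated at 0.22, 0.33 and 0.25 between same-numbered libraries and at -0.26 to 0.00 between others. The column names of same-numbered libraries also end in the same digits, so the numbers were taken to pair the samples. Calls and permutation tests did not use this pairing, except where the replicate block is named. No library was a duplicate of another. P-values of edgeR and DESeq2 rest on the spread between these cultures, with variance estimates shared across genes. They do not measure the spread of a single gene alone, also with the replicate block. Read counts without molecular identifiers are not independent molecules.

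The members, lists and motifs were chosen with earlier results of these data known. Values in each library were given for the member with the smallest p in each step and for members changed over 2-fold, and added for others after their values were seen. Related genes were named where they passed the test with over 2-fold change or had the smallest p in their list, with SQSTM1 and MTOR added.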

Additional observations from a re-analysis of the deposited data

How the results depend on the processing

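Of the 21 higher members 17 passed in the same direction in all 12 alternatives, the others being GABARAPL2, NBR1, TAX1BP1 and TFEB, and none of the 3 lower members did. The replicate block lost no member call and added 4 lower ones (BECN1, PIK3R4, ATG16L1 and ATG4C). This gave 7 lower members, 3 in nucleation, 3 in conjugation and 1 among ATG4 proteases. It also gave 1 lower gene among other core factors, and changed no other member call. Total counts in place of TMM gave 2763 higher and 3875 lower genes against 3311 and 3178, 7 lower members, a member median of 0.23, 3 lower nucleation genes with a median of -0.27, 1 lower ATG4 gene, 1 higher cargo receptor and 1 higher transcription factor. In the lists it gave 2 lower other core factors, 2 lower other cargo receptors with a median of 0.25, and medians of 0.29 for nutrient and energy signalling and 0.34 for other transcriptional regulators.

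DESeq2 size factors gave 2 lower nucleation genes, a nucleation median of -0.20, 1 higher cargo receptor and 1 lower other core factor. Without a count filter these were a median of -0.20, 1 higher cargo receptor and 1 lower other core factor. DESeq2's Wald test gave a nucleation median of -0.21 and 1 higher cargo receptor, and with the replicate block -0.21 and 1 higher transcription factor, with none of the 4 added lower calls.

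Over the 6 fits that left out 1 library, lower members numbered 1 to 3 and lower nucleation genes 0 to 1 (median -0.21 to -0.16). Each of these fits had 1 lower conjugation gene, though not the same gene in all of them. In the same fits lower ATG4 genes numbered 0 to 1, higher cargo receptors 1 to 3 and higher transcription factors 1 to 2. Lower genes numbered 0 to 1 in other core factors, 0 to 1 in other cargo receptors (median 0.28 to 0.33) and 1 to 2 in fusion (median 0.24 to 0.36), and the median of other transcriptional regulators was 0.36 to 0.53. Some values near 0 changed sign: the initiation median (-0.012 to 0.25) and ULK2 (-0.012) without DMSO replicate 1, the conjugation median (-0.10 to 0.035, at 0.035 without DMSO replicate 3), ATG2A (-0.14 to 0.070, at 0.00030 without DMSO replicate 1, 0.070 without DMSO replicate 3 and 0.0061 without WFA replicate 2) and the ratio of MAP1LC3B over MAP1LC3A (-0.16 to 0.27, at -0.16 without DMSO replicate 2). These fits have fewer samples, and the cause of the other differences was not tested. WIPI1, MAP1LC3A and ULK2 rest on under 100 counts per library.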

Other observations

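Of the 82 related genes, 4 were not tested because of low counts. ATG9B, the second ATG9 gene, had 5 to 10 counts per library, PLEKHM1 had at most 1, and FUNDC1 and PRKAA2 were listed at 0 in every library. A value of 0 for FUNDC1 and PRKAA2 describes the table and gives no upper limit on their transcripts.

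Subunits of the energy sensor AMPK that passed the test moved in both directions. The subunits PRKAB1 and PRKAG1 had log2 fold changes of -0.06 and 0.14 and did not pass (edgeR BH-adjusted p = 0.68 and 0.37). PRKAA1, the catalytic subunit, fell with a log2 fold change of -0.45 ± 0.10 (SE), PRKAB2, a regulatory subunit, rose with one of 0.68 ± 0.14, and STK11, the kinase LKB1 that activates AMPK, fell with one of -0.24 ± 0.09 (edgeR BH-adjusted p = 0.0023, 0.00071 and 0.042). Of the Rag GTPases, which bring mTOR complex 1 to lysosomes, RRAGB, RRAGC and RRAGD rose with log2 fold changes of 0.70, 0.67 and 0.50, and RRAGA had one of -0.11 and did not pass the test (edgeR BH-adjusted p = 0.0018, 8.3e-05, 0.0041 and 0.37). Of the 5 LAMTOR subunits that anchor them, LAMTOR1 and LAMTOR3 rose with 0.49 and 0.57, while LAMTOR2, LAMTOR4 and LAMTOR5 had -0.04, 0.31 and 0.01 and did not pass (edgeR BH-adjusted p = 0.82, 0.090 and 0.95). RPTOR, the subunit of the complex that binds the Rag GTPases, fell with a log2 fold change of -0.46 ± 0.10 (SE; edgeR BH-adjusted p = 0.0013). These genes were picked from their list after their values had been seen.

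Among SNARE proteins of fusion, STX17, SNAP29 and YKT6 rose with log2 fold changes of 0.47, 0.59 and 0.63, while VAMP8 and STX7 fell with -0.28 and -0.68 (edgeR BH-adjusted p = 0.00078, 6.2e-05, 4.0e-05, 0.031 and 7.0e-05). Of the C9orf72 complex, C9orf72 and SMCR8 rose with log2 fold changes of 0.86 and 0.56, and WDR41 had one of -0.17 and did not pass the test (edgeR BH-adjusted p = 0.0028, 0.00015 and 0.14).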
